A study of Mus musculus with 12 samples.

Results

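Fatty acid oxidation, peroxisomal lipid metabolism and ketone body metabolism were examined through 37 genes chosen by name, of which 36 had a row among the 18090 gene rows of the array. Hadha, the alpha subunit of the mitochondrial trifunctional protein, had no row. A row was taken when its name, in capitals in the files (BDH1, OXCT1, ECH1 and so on), equalled the gene symbol. The samples were total RNA from a whole piece of proximal small intestine of 12 mice labelled P6, of mixed C57/BL6;129Ola background. There were 6 mutants, labelled villinCre;Shp2fl, and 6 controls, whose genotype the labels do not give beyond that word. In the mutants, Cre driven by the villin promoter acts in the intestinal epithelium on a floxed allele of Shp2, a tyrosine phosphatase encoded by Ptpn11, while muscle, stroma, blood and immune cells of the same piece keep the gene. A lower level in such a piece can mean fewer cells of a type or less RNA per cell, and these cannot be told apart here. Levels are the deposited intensities (arbitrary units), with mean ± SD for the 6 mice of each group, and they order mice for 1 gene but not genes against each other. Log2 differences are mutant minus control, from limma on the log2 scale after an offset of 50, with their standard error (SE) and a p-value adjusted by Benjamini-Hochberg over all rows, and a gene was called when that p was below 0.05.

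Long-chain fatty acids are joined to coenzyme A, carried into mitochondria as carnitine esters, and shortened there in repeated rounds of dehydrogenation, hydration, dehydrogenation and thiolysis, with electrons passed on through the electron transfer flavoprotein. Peroxisomes shorten very long and branched chains with a separate set of enzymes. Where acetyl-CoA exceeds what the citrate cycle takes up, it can be turned into ketone bodies, a fuel for other tissues. The nuclear receptor Ppara drives many of these genes when fatty acids are plentiful.

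The tissue label held for most of the enterocyte markers. Of 10 measured, 7 were above the noise limit of 27.8, set by the most negative value in the table, with Fabp1, Fabp2 and Si within it. The summed enterocyte markers ranged from 92399 to 95089 in mutants and from 90148 to 95362 in controls, and 0 of the 10 were called by limma. Apoa1 and Apoa4, at 37004 ± 1357 and 36339 ± 2354 in mutants and 36698 ± 2053 and 35819 ± 1033 in controls, make up most of that sum and are among the brightest rows, so it does not show that enterocyte content was alike. At an unadjusted p below 0.05, 1 of these 10 was lower and 0 higher. Vil1, the gene whose promoter drives Cre, read 7220.5 to 10318.6 in mutants and 7985.4 to 11085.7 in controls (limma adjusted p = 0.801). Arrays correlated at 0.983 to 0.994 within groups. The row for Ptpn11 read 1498 ± 118 in mutants and 1288 ± 124 in controls and was not called (limma adjusted p = 0.0763), and since no source used here places its probe, it does not check the labels. Control 4 and mutant 1 stood apart in pancreatic acinar transcripts, which summed to 29930 in mutant 1 while the other mutants had 663 to 2542, and to 58271 in control 4 while the other controls had 1397 to 6164.

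Among the 36, mitochondrial and ketone body genes made up most of those called. Of the 36 genes, 7 fell in mutants (Cpt2, Acadm, Hadhb, Ech1, Decr1, Acot1 and Bdh1), or 19.4%, against 4.48% of all 18090 rows and 7.74% of the 10202 rows above the noise limit. A single gene, Oxct1, rose, or 2.78%, against 4.71% of all rows and 7.99% of those above the limit. In either direction 9.19% of all rows were called. The median log2 difference of the 36 was -0.16, against -0.01 over all rows, and 69.4% of the 36 lay below 0, against 52.7% of all rows. In 3 genes (Bdh1, Ech1 and Decr1) every mutant was below every control, as in 2.21% of all rows and 3.74% of those above the limit, and in 0 was every mutant above every control, as in 2.48% and 4.14%. Without control 1, control 3 or mutant 4 the count with every mutant lower was 5. The number that fell was 3 without mutant 3, 4 without control 5 and 12 without mutant 4.

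**Figure D1:**
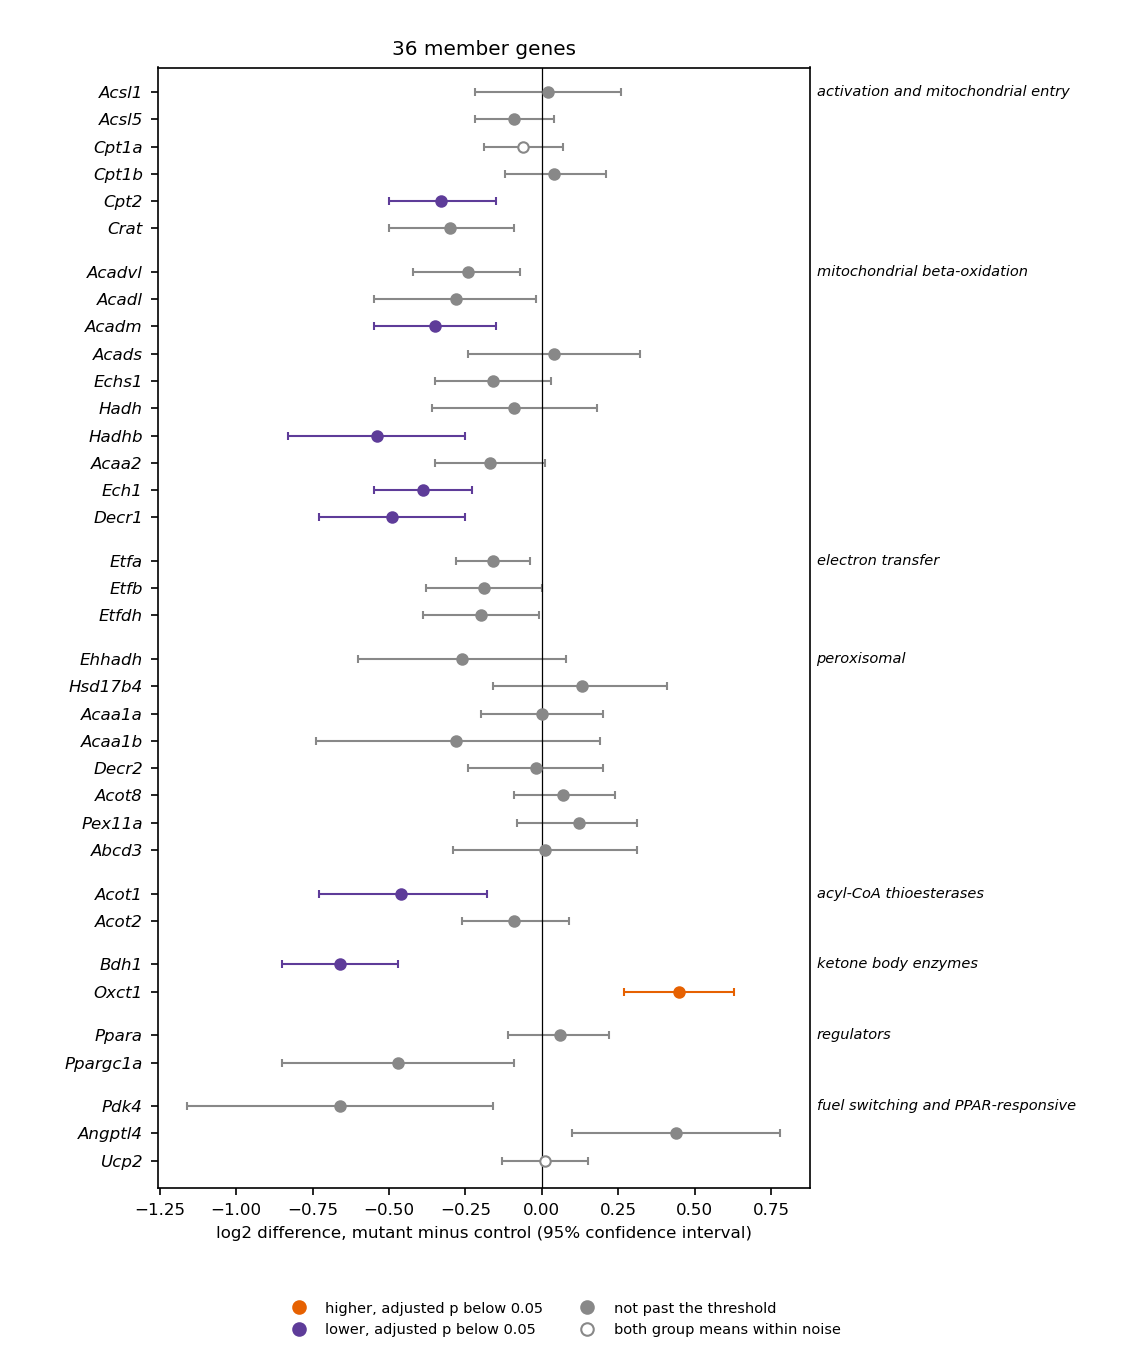
Log2 difference, mutant minus control, of the 36 genes grouped by role, with limma's 95% confidence interval, which is not adjusted for the number of genes. Purple points fell, the orange point rose, grey points did not pass the adjusted threshold, and open points had both group means within the noise limit. Bdh1 and Pdk4 lie lowest, both at -0.66, Oxct1 lies highest, at 0.45, and the 8 peroxisomal genes lie between -0.28 and 0.13.

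Ketone body genes moved in opposite directions. Bdh1, the mitochondrial dehydrogenase that interconverts acetoacetate and beta-hydroxybutyrate, read 1329 to 1838 in mutants with a median of 1692, against 2308 to 3030 in controls with a median of 2569. All 6 mutants lay below all 6 controls, and the mean fell by 37.9% (log2 difference -0.66, SE 0.09, limma adjusted p = 0.000401). Oxct1, the transferase that begins the use of ketone bodies by reactivating acetoacetate, read 743.2 to 974.7 in mutants with a median of 888.0, against 536.5 to 747.2 in controls with a median of 608.5. Of the mutants, 5 exceeded every control and mutant 2 lay just inside the control range, under control 4 alone. The mean was 1.40-fold higher (log2 difference 0.45, SE 0.08, adjusted p = 0.00353). Both calls held in all 20 alternative fits, with adjusted p from 0.000194 to 0.00314 for Bdh1 and from 0.00174 to 0.0129 for Oxct1.

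Acat1 and Bdh2, ketone body genes outside the 36, fell as well. Acat1, the mitochondrial thiolase that supplies acetoacetyl-CoA and also takes part in ketone use, read 138.7 to 276.6 in mutants with a median of 186.5, against 280.3 to 378.9 in controls with a median of 314.9, and fell without overlap (log2 difference -0.54, SE 0.12, limma adjusted p = 0.0125). Bdh2, a cytosolic relative of Bdh1, fell to 991 ± 472 in mutants, against 2013 ± 440 in controls (log2 difference -1.06, SE 0.25, adjusted p = 0.015), with mutant 5 at 1850.7 inside the control range. Aacs, listed with these ketone body genes, went the other way, at 669 ± 99.8 in mutants and 516 ± 96.6 in controls. Aacs was not called (log2 difference 0.34, SE 0.11, limma adjusted p = 0.0692) and is named after its values were seen. Not all genes of that list are reported here.

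**Figure D2:**
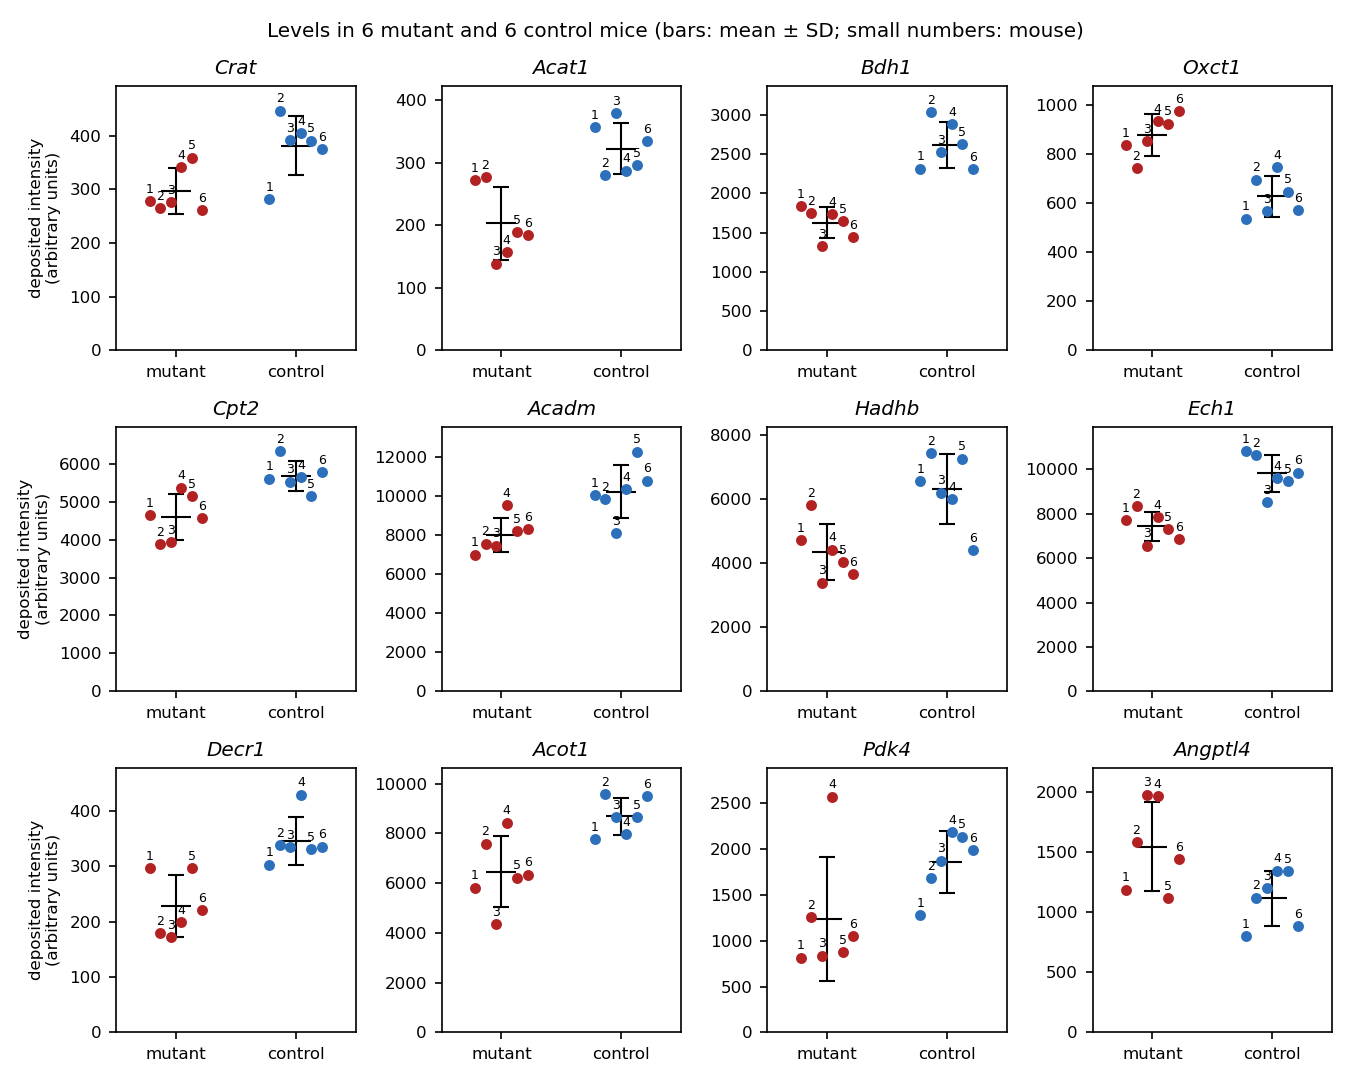
Deposited intensity (arbitrary units, axes from 0) of 12 genes in each mouse, mutants left and controls right, with mean ± SD as bars and the mouse number beside each point. Acat1, Bdh1, Ech1 and Decr1 show no overlap, Oxct1 is higher in mutants, and mutant 4 stands at 2567 for Pdk4 while the other 5 mutants lie at or under 1258.

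Within mitochondrial beta-oxidation, 4 of 10 measured genes fell, beside 4.48% of all rows and 7.74% of rows above the noise limit. Of the 10, 0 rose, beside 4.71% and 7.99% in the same order, and the median log2 difference was -0.26. Among these 10, the clearest falls were in Ech1 and Decr1, auxiliary enzymes for unsaturated fatty acids. Other such enzymes, Eci1, Eci2 and the peroxisomal Decr2, were not called. Their log2 differences were 0.04, -0.34 and -0.02 in that order (limma adjusted p = 0.938, 0.281 and 0.95). All lie outside the 10, and Eci1 and Eci2 are named after their values were seen. Ech1, a dienoyl-CoA isomerase, read 6556 to 8326 in mutants with a median of 7511, against 8506 to 10803 in controls with a median of 9718. Decr1, the mitochondrial dienoyl-CoA reductase, read 172.0 to 296.9 in mutants with a median of 210.3, against 303.2 to 429.3 in controls with a median of 334.9. Neither gene overlapped between the groups. The log2 difference was -0.39 for Ech1 (SE 0.07, limma adjusted p = 0.00484) and -0.49 for Decr1 (SE 0.11, adjusted p = 0.013), and both calls held in all 20 alternative fits.

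Hadhb and Acadm fell with overlap. Hadhb, the thiolase subunit of the trifunctional protein, read 3386 to 5814 in mutants with a median of 4227, against 4402 to 7431 in controls with a median of 6380. Control 6 lay under mutants 1, 2 and 4, and the other 5 controls lay above every mutant. The mean fell by 31.2% (log2 difference -0.54, SE 0.14, limma adjusted p = 0.0225). Acadm, the medium-chain acyl-CoA dehydrogenase, read 6987 to 9516 in mutants with a median of 7866, against 8083 to 12245 in controls with a median of 10180. Every mutant was under the control mean, and control 3 lay under mutants 4, 5 and 6 (log2 difference -0.35, SE 0.09, adjusted p = 0.0311). The Hadhb call was lost without control 5 (adjusted p = 0.0539), mutant 3 (0.053) or mutant 6 (0.0549), and the Acadm call in 6 of the 12 leave-one-out fits, without mutant 1, 2 or 3 or without control 4, 5 or 6. Over all alternatives the adjusted p ran from 0.00632 to 0.0683 for Hadhb and from 0.0106 to 0.1 for Acadm.

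The other enzymes of the spiral were not called. Acadvl, which starts on very long chains, was at 3330 ± 225 in mutants and 3956 ± 512 in controls (log2 difference -0.24, limma adjusted p = 0.0816, and 0.0227 without control 1, in a range over alternatives of 0.0227 to 0.213), and Acadl, its long-chain counterpart, at 810 ± 191 and 989 ± 103 in the same order (-0.28, adjusted p = 0.196). Acads, for short chains, read 613 ± 85.3 in mutants and 604 ± 124 in controls, with the interval of the log2 difference from -0.24 to 0.32. Echs1, the short-chain hydratase, was at 2370 ± 293 in mutants and 2630 ± 240 in controls (adjusted p = 0.329). Acaa2, the matrix thiolase, was at 5446 ± 552 in mutants and 6057 ± 727 in controls (adjusted p = 0.271). The row named Hadh, a hydroxyacyl-CoA dehydrogenase, was above the noise limit in 6 of 12 mice. A row under its older name Hadhsc, found by synonym and not counted, read 191 ± 57.7 in mutants and 232 ± 53.6 in controls (log2 difference -0.22, adjusted p = 0.451).

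None of the 3 electron transfer genes was called. Etfa and Etfb encode the flavoprotein that takes electrons from the acyl-CoA dehydrogenases, and Etfdh the enzyme that hands them to ubiquinone. Etfa was at 7218 ± 326 in mutants and 8039 ± 530 in controls, Etfb at 7909 ± 492 in mutants and 9089 ± 1251 in controls, and Etfdh at 1335 ± 155 in mutants and 1546 ± 177 in controls. In each of the 3 all 6 mutants lay under the control mean, and the log2 differences of -0.16, -0.19 and -0.20 were not called (limma adjusted p = 0.107, 0.222 and 0.195). Without control 1 Etfb passed (adjusted p = 0.039), in a range over alternatives of 0.039 to 0.39. Of 28 respiratory chain and citrate cycle genes, 0 were called in either direction by limma, beside 9.19% of all rows and 15.7% of rows above the noise limit. At an unadjusted p below 0.05, 4 of the 28 were higher and 3 lower, and the median log2 difference of the 28 was -0.00. With array weights 1 of these was called higher and 2 lower.

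At the entry step, Cpt2 fell while its partners were not called. Cpt2, which turns carnitine esters back into acyl-CoA inside the mitochondrion, read 3884 to 5370 in mutants with a median of 4604, against 5138 to 6327 in controls with a median of 5623. Of the mutants, 4 lay below every control, and mutants 4 and 5 reached the lowest control values (log2 difference -0.33, SE 0.08, limma adjusted p = 0.0225). The call was lost without control 2 (adjusted p = 0.0501) or mutant 3 (0.0516), in a range over alternatives of 0.00954 to 0.0603. Crat, a carnitine acetyltransferase, was at 297 ± 42.3 in mutants and 382 ± 54.6 in controls, with 6 of 6 mutants under the control mean, and was not called (log2 difference -0.30, SE 0.10, adjusted p = 0.0694). It passed without control 1, mutant 4 or mutant 5 (adjusted p = 0.0153, 0.0474 and 0.0405), in a range over alternatives of 0.0153 to 0.194. Cpt1a, the liver-type isoform of the outer-membrane step, was within the noise limit in all 12 mice, so its row gave no level, and the muscle-type Cpt1b read 63.3 ± 17.9 in mutants and 58.9 ± 5.97 in controls.

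Neither of the acyl-CoA synthetases among the 36 was called. Acsl5, an intestinal isoform, read 32097 ± 2333 in mutants and 34846 ± 2003 in controls (log2 difference -0.09, interval -0.22 to 0.04), among the brightest rows of the array, so its closeness does not show an equal level. Acsl1 read 1432 ± 200 in mutants and 1418 ± 233 in controls (interval -0.22 to 0.26). Acot1, a cytosolic thioesterase that splits acyl-CoA again, read 4363 to 8432 in mutants with a median of 6280, against 7775 to 9577 in controls with a median of 8651. Only mutant 4 reached the control range, and the gene fell (log2 difference -0.46, SE 0.13, limma adjusted p = 0.0395). That call was lost in 8 of the 12 leave-one-out fits, all but those without control 1, control 4, mutant 2 or mutant 4, with an adjusted p of 0.0119 to 0.0986 over all alternatives. Its mitochondrial relative Acot2 read 25.1 ± 10.7 in mutants and 31.3 ± 10.2 in controls, around the noise limit. Acot1 and Acot2 are near-identical neighbours, as are Acaa1a and Acaa1b, so which transcript each row reads is uncertain.

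Of 8 peroxisomal genes 0 were called in either direction, beside 9.19% of all rows and 15.7% of rows above the noise limit. At an unadjusted p below 0.05, 0 of the 8 passed, and their median log2 difference was 0.00. Abcd3, the membrane transporter that brings fatty acyl-CoA in, read 4473 ± 927 in mutants and 4368 ± 870 in controls. The bifunctional enzymes Ehhadh and Hsd17b4 read 336 ± 135 and 6074 ± 992 in mutants, against 399 ± 52.2 and 5509 ± 1070 in controls. Of the thiolase rows, Acaa1a read 6586 ± 392 in mutants and 6572 ± 971 in controls (interval of the log2 difference -0.20 to 0.20), and Acaa1b 2964 ± 979 in mutants and 3529 ± 819 in controls (-0.74 to 0.19). The reductase Decr2, the thioesterase Acot8 and the peroxisome division factor Pex11a had log2 differences of -0.02, 0.07 and 0.12. Whether mitochondrial and peroxisomal genes differ from each other in their response was not tested. Among 25 other listed genes of peroxisomal oxidation 2 fell and 0 rose, and among 16 of peroxisome biogenesis 2 fell and 0 rose, beside 4.48% of all rows and 7.74% of rows above the noise limit that fell. The median log2 difference was -0.11 in the first list and -0.15 in the second. At an unadjusted p below 0.05, 5 of the 25 were lower and 2 higher, and 5 of the 16 were lower and 1 higher. Of all 18090 rows, 2062 were lower and 1876 higher at that p. The 2 called genes of the first list were Dao, an amino acid oxidase, and Mpv17, an inner membrane protein of mitochondria, and those of the second were Pex6 and Pex14. These were named after their values were seen, apart from Dao. Catalase (Cat), the peroxisomal enzyme that breaks down hydrogen peroxide, read 2490 ± 1030 in mutants and 3041 ± 1382 in controls (adjusted p = 0.759).

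Of the 5 regulators and fuel-switching genes among the 36, 0 were called by limma, beside 9.19% of all rows and 15.7% of rows above the noise limit in either direction. At an unadjusted p below 0.05, 1 of the 5 was higher and 2 were lower. Ppara was near the noise limit, at 37.8 ± 13.9 in mutants and 33.2 ± 3.69 in controls. Ppargc1a, a coactivator of mitochondrial genes, read 165.8 to 386.3 in mutants with a median of 233.7, against 283.2 to 532.1 in controls with a median of 364.5 (log2 difference -0.47, SE 0.18, limma adjusted p = 0.127). In 4 mutants it lay under every control, while mutants 2 and 4 read 370.3 and 386.3. Pdk4, the kinase that shuts pyruvate out of the citrate cycle when fat is burned, read 813.3 to 2567 in mutants with a median of 958.9, against 1277 to 2180 in controls with a median of 1928. In 5 mutants it was below every control, and in mutant 4 above every control (log2 difference -0.66, SE 0.23, adjusted p = 0.096). Without mutant 4 the Pdk4 difference was -0.89 with an adjusted p of 0.0016, in a range over alternatives of 0.0016 to 0.274. Angptl4, a secreted inhibitor of lipoprotein lipase that responds to Ppara and its relatives, read 1116 to 1976 in mutants with a median of 1510, against 798.7 to 1346 in controls with a median of 1159. All 6 mutants lay above the control mean and 4 above every control, and it was not called (log2 difference 0.44, SE 0.16, adjusted p = 0.107). Ucp2, a mitochondrial carrier, was within the noise limit in all 12 mice.

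The mutants were not alike across these genes. Of the 34 genes above the noise limit, mutant 4 had the highest mutant level in 17 and the lowest in 0, whereas over all rows above the limit it was the highest mutant in 20.3%. Mutant 3 had the lowest mutant level in 21 of the 34, against 20.8% of all rows above the limit. The median log2 level relative to the control mean was 0.06 in mutant 4, -0.06 in mutant 2, -0.12 in mutant 5, -0.21 in mutant 1, -0.23 in mutant 6 and -0.35 in mutant 3. Mutant 4 was above every control in 11 of the 34, among them Ehhadh, Hsd17b4, Acaa1b, Acot8 and Pdk4, and below every control in 4 (Ech1, Decr1, Etfa and Bdh1). Mutant 3 was below every control in 23. The matching shares over all rows were not computed for these counts of 11, 4 and 23. How unusual the counts are is therefore not known. Leaving out mutant 4 kept all 7 genes that fell and added Acadl, Crat, Ehhadh, Pdk4 and Ppargc1a, while leaving out mutant 3 kept only Bdh1, Ech1 and Decr1. Smooth muscle markers summed to 46232 to 63116 in mutants, highest in mutant 3 and at 56522 in mutant 4, and to 35172 to 56079 in controls. Of these 9 markers 1 was called higher, and at an unadjusted p below 0.05, 3 were higher and 0 lower, with a median log2 difference of 0.28. Sums of the hepatocyte, macrophage and striated muscle lists overlapped between the groups, and that of the adipocyte list, mostly Cidec, did not. Adipocyte markers summed to 1971 to 3071 in mutants and 3082 to 4643 in controls, with 6 of 8 within the noise limit (Adipoq, Cfd, Plin1, Retn, Lep and Ucp1) and only Cidec lower. Hepatocyte markers summed to 3268 to 10064 in mutants and 8519 to 14841 in controls, with 5 of 8 within the limit, Alb among them, and 2 lower (Ttr and Serpina1a). Macrophage markers summed to 4232 to 6041 in mutants and 4039 to 5380 in controls, with 2 of 8 higher and 2 lower. Striated muscle markers summed to 236 to 390 in mutants and 228 to 306 in controls, with 0 of 8 called by limma and 2 higher at an unadjusted p below 0.05. The part of these lists in the results was not tested.

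**Figure D3:**
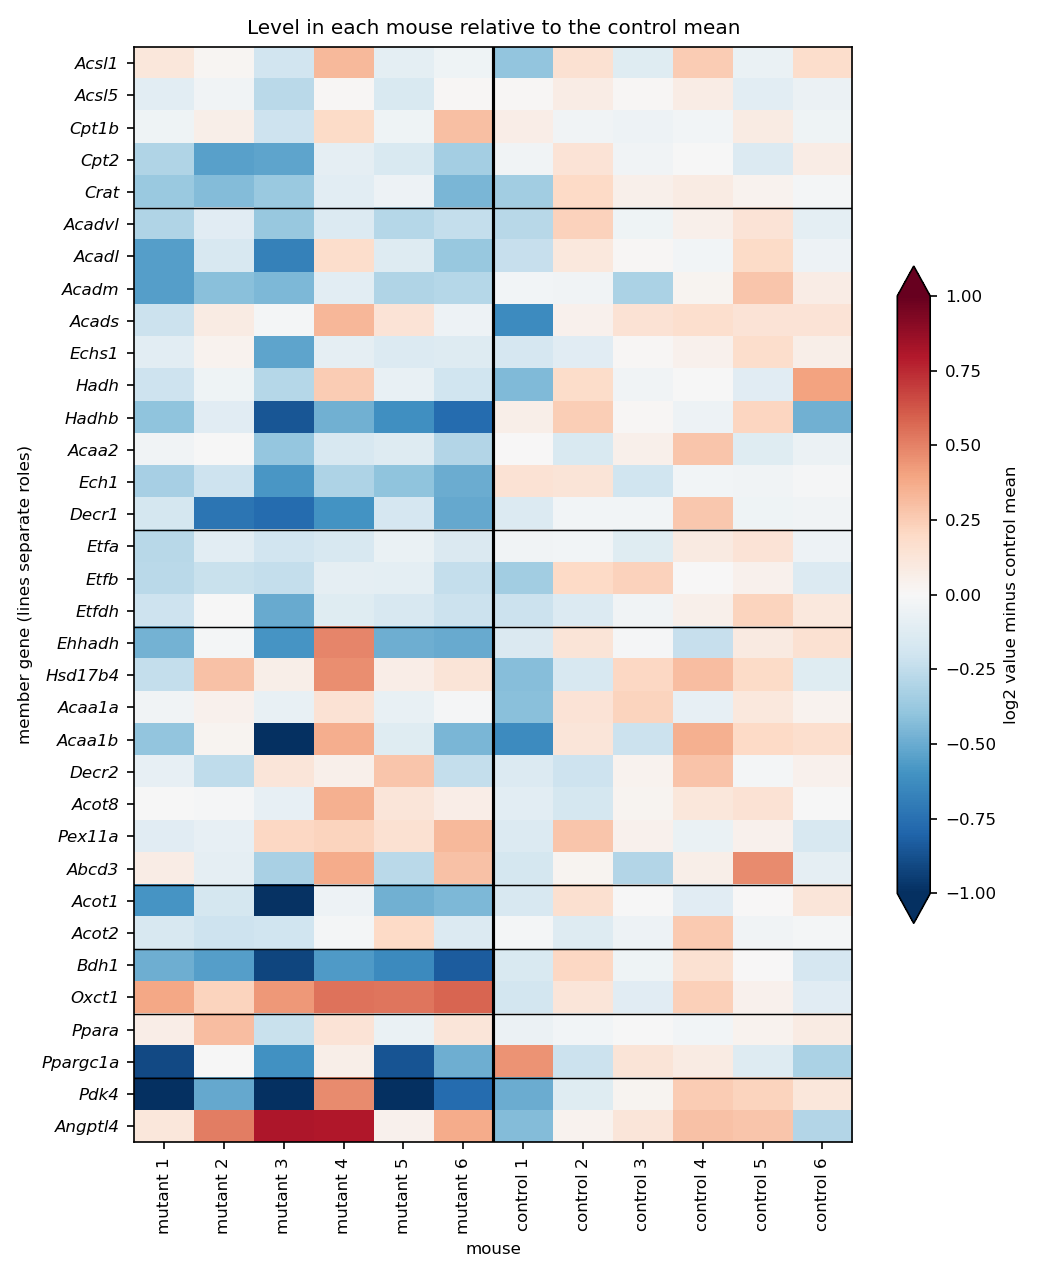
Each cell is the log2 value of a gene in a mouse minus the control mean of that gene, for the 34 genes above the noise limit, mutants left of the line and controls right, with colours capped at 1 in either direction. Mutant 3 is blue in most mitochondrial rows, mutant 4 is red in peroxisomal rows and Pdk4, and the Bdh1 and Oxct1 rows have the same colour in all 6 mutants.

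The promoters of these genes were set beside the levels because Ppara and its relatives bind a direct repeat of the hexamer AGGTCA. RefSeq promoter sequences (assembly GRCm38.p6, 250 bases before to 50 after the start) were found for 30 of the 36 genes, as 33 windows. A direct repeat of AGGNCA with a single base between the copies (called DR1), the element TCAAGGTCA read by ERR-type receptors, and CAAAGGTCA, which overlaps a form of the repeat, were searched on both strands. They were in 0 of the 33 windows and in 0.381%, 0.423% and 0.478% of all 32851. The hexamer alone was in 4 of the 33 (Acadm, Acadvl, Cpt1a and Echs1), or 12.1%, against 16.3% of all. Shown are the 250 bases before the start, on the gene's strand, of 3 genes that fell and of Oxct1, which rose, with the hexamer in capitals on either strand and the rest in lower case. The windows are chr16:31422047-31422296 (plus strand, the upstream of 2 starts), chr7:28825088-28825337 (plus), chr3:153944644-153944893 (minus) and chr15:4026178-4026427 (plus).
Bdh1: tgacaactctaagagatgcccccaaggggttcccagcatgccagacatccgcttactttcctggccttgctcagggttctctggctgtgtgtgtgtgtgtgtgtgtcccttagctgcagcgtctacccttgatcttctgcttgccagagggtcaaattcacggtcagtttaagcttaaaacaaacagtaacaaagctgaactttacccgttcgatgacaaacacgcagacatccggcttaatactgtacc
Ech1: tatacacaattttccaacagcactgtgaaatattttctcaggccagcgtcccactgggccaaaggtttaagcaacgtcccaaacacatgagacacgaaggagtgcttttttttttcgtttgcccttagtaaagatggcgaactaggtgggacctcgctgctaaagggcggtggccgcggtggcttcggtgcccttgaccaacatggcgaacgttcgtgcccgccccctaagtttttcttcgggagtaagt
Acadm: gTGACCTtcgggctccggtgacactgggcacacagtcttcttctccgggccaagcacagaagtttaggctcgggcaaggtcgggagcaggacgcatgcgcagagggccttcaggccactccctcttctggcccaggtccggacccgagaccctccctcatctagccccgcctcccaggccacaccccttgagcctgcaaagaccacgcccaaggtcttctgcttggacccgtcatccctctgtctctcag
Oxct1: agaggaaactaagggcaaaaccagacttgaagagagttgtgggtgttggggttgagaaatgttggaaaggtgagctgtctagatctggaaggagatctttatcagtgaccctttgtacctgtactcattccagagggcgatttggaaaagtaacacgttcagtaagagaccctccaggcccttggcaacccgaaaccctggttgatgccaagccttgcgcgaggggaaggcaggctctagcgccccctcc
Among these 4, the hexamer was present in Acadm, at the far end of its window, and the windows of Bdh1, Ech1 and Oxct1 did not hold it. These matches describe letters in a short window and not binding.

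Across 123 other genes of the pathway with a row, 13 fell and 4 rose, or 10.6% and 3.25%, against 4.48% and 4.71% of all rows and 7.74% and 7.99% of rows above the noise limit, with a median log2 difference of -0.04. The number that fell was 8 without control 3, control 5 or mutant 3, and the number that rose was 7 without control 4. Acsl3, a fatty acyl-CoA synthetase tied to lipid droplets, fell to 803 ± 146 in mutants, against 1685 ± 239 in controls, without overlap (log2 difference -1.01, SE 0.12, limma adjusted p = 0.00014). Cidec, a lipid droplet protein, fell to 2390 ± 430 in mutants, against 3915 ± 528 in controls, and G0s2, an inhibitor of the triglyceride lipase, rose to 174 ± 26.3 in mutants, against 99.6 ± 23 in controls (log2 differences -0.72 and 0.52, adjusted p = 0.00185 and 0.00246). Neither overlapped between the groups.

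**Figure D4:**
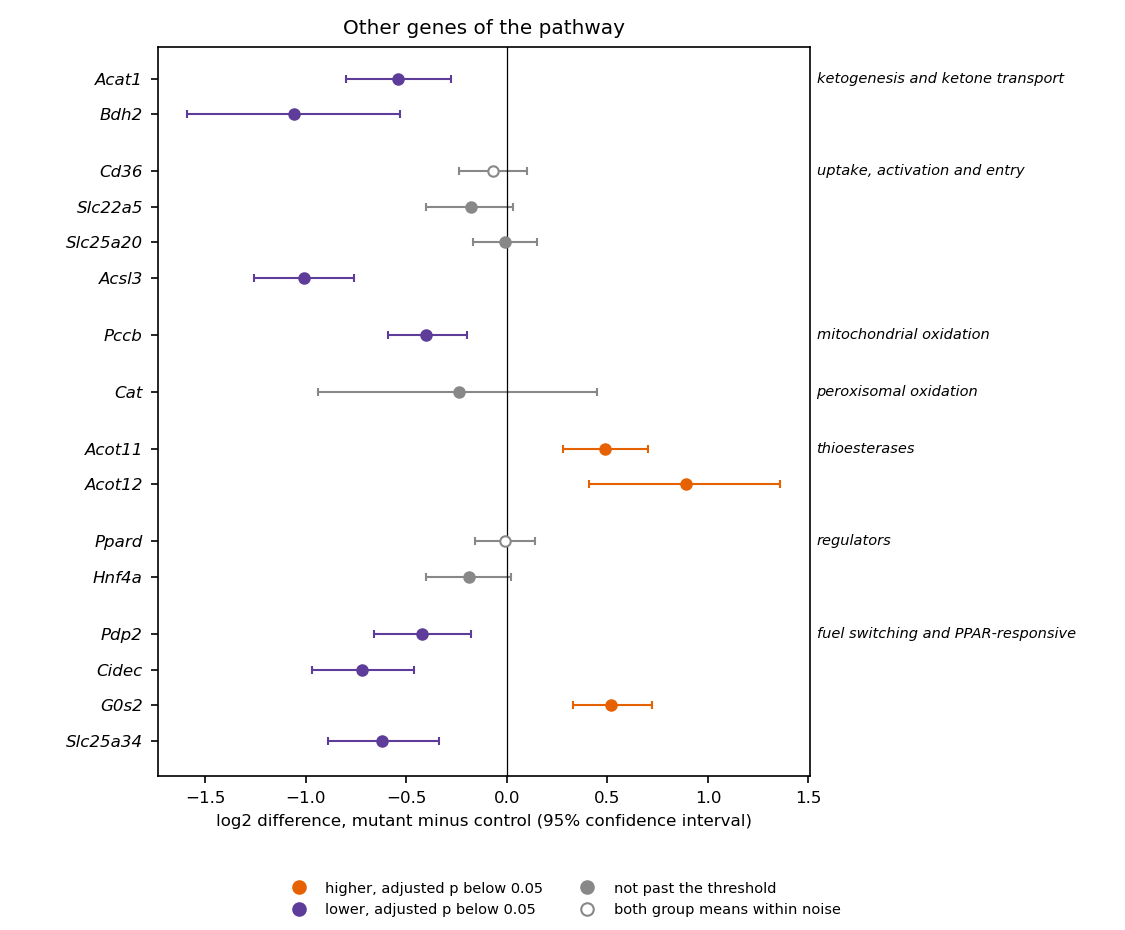
Log2 difference, mutant minus control, with limma's unadjusted 95% confidence interval, for genes of the pathway outside the 36 that the text names, coloured as purple for fell, orange for rose and grey for not past the adjusted threshold, with open points where both group means were within the noise limit. Dao is left out of the plot for its scale, and genes named after their values were seen are not plotted. Bdh2 and Acsl3 lie lowest, at -1.06 and -1.01, and Acot12 highest, at 0.89.

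The thioesterases Acot11 and Acot12 rose, unlike Acot1. Acot11 read 533 ± 86.7 in mutants and 359 ± 48.6 in controls, without overlap (log2 difference 0.49, SE 0.10, limma adjusted p = 0.00639), and Acot12 read 176.5 to 734.4 in mutants with a median of 355.1, against 133.6 to 192.3 in controls with a median of 164.9 (log2 difference 0.89, SE 0.22, adjusted p = 0.0215). For Acot12, mutant 5 alone lay in the control range. Pccb, a subunit of propionyl-CoA carboxylase, fell to 671 ± 64.6 in mutants, against 919 ± 144 in controls, without overlap (log2 difference -0.40, adjusted p = 0.0138). The pyruvate dehydrogenase phosphatase Pdp2, read by the row 4833426J09Rik, fell to 1054 ± 228 in mutants, against 1412 ± 118 in controls, and Slc25a34, of the mitochondrial carrier family, to 305 ± 77.9 in mutants, against 498 ± 76.3 in controls (log2 differences -0.42 and -0.62, adjusted p = 0.0306 and 0.00759). The Pdp2 call was lost in 6 of the 12 leave-one-out fits, without mutant 1, 3 or 5 or without control 3, 5 or 6, in a range over alternatives of 0.00894 to 0.0861. Dao, a peroxisomal amino acid oxidase, had an adjusted p of 0.0181, in a range over alternatives of 0.00034 to 0.0711, but 1 mouse of each group stood apart, mutant 1 at 402.8 with the rest of the mutants at -1.3 to 8.8, and control 5 at -0.7 with the rest of the controls at 837.6 to 1430.4.

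Genes that carry fatty acids and carnitine, and nuclear receptors, were not called. The carnitine transporter Slc22a5 read 1721 ± 237 in mutants and 1975 ± 286 in controls (limma adjusted p = 0.324), and the carnitine-acylcarnitine translocase Slc25a20 read 3134 ± 277 in mutants and 3163 ± 288 in controls, with the interval of its log2 difference from -0.17 to 0.15. Hnf4a, a nuclear receptor of the gut epithelium, read 2853 ± 338 in mutants and 3269 ± 521 in controls (adjusted p = 0.287). The rows of the fatty acid transporter Cd36 and of Ppard, a relative of Ppara, were within the noise limit in all 12 mice.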

How the data were processed

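Total RNA of 12 mice was hybridised to 1-colour arrays. The deposited intensities are linear and background-subtracted, with 22.5% below 0 and column medians of 41.8 to 43.4, as the values show. GenomeStudio and Partek are named, per the submitters' processing notes; no source used here gives further steps. A further table with 24 columns headed by sample numbers that match no label was not used. The deposited intensities were corrected with normexp (offset 50), quantile-normalized, put on the log2 scale and fitted with limma 3.58.1 in R 4.3.3, with Benjamini-Hochberg adjustment over all 18090 rows. The fit was tested on simulated data, where recovery was required only for changes larger than most of those reported here. Offsets, normalization, variance models, a replicate block, a noise filter and leaving out mice were the alternatives. The mice are biological replicates per the labels. The number of arrays limits the precision. The 36 genes, the wider and marker lists and the rule naming genes (all of the 36, and of the wider lists the 12 largest calls and 9 set by name, some of which are not reported here) were chosen with earlier results of these data known.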

Additional observations from a re-analysis of the deposited data

Results flagged for a closer look

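In 8 of 106 groups of 6 mice, the highest or lowest mouse lay far from the other 5 by Dixon's test, which flags about 1 in 20 groups by chance. Among the 36 genes, mutant 3 was low for Echs1, at 1806.7 against 2416.8 to 2678.9 in the other mutants. Mutant 4 was high for Pdk4, at 2567.3 against 813.3 to 1258.0 in the other mutants. Control 1 was low for Acads, at 354.1 against 619.3 to 673.2 in the other controls. Control 4 was high for Decr1, at 429.3 against 303.2 to 337.8, and for Acot2, at 51.3 against 22.1 to 29.7 in the other controls. Outside the 36, mutant 3 was low for Slc25a20, at 2608.0 against 3123.6 to 3394.0 in the other mutants. Dao was high in mutant 1, at 402.8 against -1.3 to 8.8 in the other mutants, and low in control 5, at -0.7 against 837.6 to 1430.4 in the other controls.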

How the results depend on the processing

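No called gene changed direction in the 20 alternatives. Of the genes not called, Acsl1, Cpt1b, Acads, Acaa1a, Decr2, Abcd3, Ucp2, Slc25a20 and Ppard, all near 0, took both signs, within -0.09 to 0.13. The median was -0.04 to 0.06 for the peroxisomal genes (0.00 as reported) and -0.11 to 0.04 for the 3 fuel-switching genes (0.01). That 0.01 is the value of Ucp2, whose row was within the noise limit, with Pdk4 at -0.66 and Angptl4 at 0.44. Bdh1, Oxct1, Ech1 and Decr1 passed in all 20 alternatives, while Cpt2, Acadm, Hadhb and Acot1 were lost in some. Without background correction and floored at the noise limit, 523 rows were higher and 481 lower (852 and 811 as reported), 3 of the 36 genes fell and 6 of the wider lists fell, and Bdh2, Acot12, Dao and Pdp2 were lost (adjusted p = 0.0584, 0.0623, 0.0711 and 0.0781). Dao was also lost with trend and robust variances (0.0552) and with array weights (0.0562). The adjusted p ranged over the alternatives from 0.00208 to 0.0584 for Bdh2 and from 0.00438 to 0.0623 for Acot12. Without control 4 and mutant 1 together, 4 of the 36 fell, 1 was higher without overlap, 7 of the wider lists rose and 2 respiratory chain genes were higher. With trend and robust variances 8 of the wider lists fell. With array weights Acadvl, Crat and Pdk4 passed (0.0288, 0.0279 and 0.0198), 7 of the wider lists rose, and 1 respiratory chain gene was higher and 2 lower. Without quantile normalization, or with only rows above the noise limit, 1 respiratory chain gene was higher. The cause was not tested.
With the replicate number as a block, 8 of the 36 fell, with Acadvl and Pdk4 added (0.0492 and 0.0382) and Cpt2 lost (0.0537), 2 rose, with Angptl4 added (0.0429), 7 of the wider lists rose, 2 respiratory chain genes were higher and 2 lower, and Ptpn11 passed (log2 difference 0.21, limma adjusted p = 0.044). Deviations of same-numbered mice correlated at -0.109 to 0.266, and 2 mutants correlated best with their own number, so the numbers were not taken as a pairing. Leaving out 1 mouse at a time gave 655 to 875 rows higher and 592 to 844 lower. Of the 36, 3 to 12 fell and 1 rose, and 3 to 5 were lower and 0 to 1 higher without overlap. Of the wider lists 8 to 12 fell and 4 to 7 rose, and of the respiratory chain genes 0 to 2 were higher and 0 to 1 lower. The median of the 36 was -0.18 to -0.10, and the Ptpn11 difference 0.18 to 0.25, passing without control 3 (adjusted p = 0.043). Values under the noise limit have no usable order, which covers Cpt1a, Ucp2, Cd36 and Ppard.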

Other observations

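Of the called genes in the wider lists, 5 had smaller differences and are named here after their values were seen. Pex6 and Pex14, which import proteins into peroxisomes, fell to 578 ± 49.4 and 865 ± 71.1 in mutants, against 719 ± 91.9 and 1105 ± 163 in controls (limma adjusted p = 0.0473 and 0.0402). Mlycd, which removes the Cpt1 inhibitor malonyl-CoA, fell to 593 ± 93 in mutants, against 750 ± 58.3 in controls (adjusted p = 0.0423). Mpv17 fell to 319 ± 50.1 in mutants, against 414 ± 43.2 in controls (adjusted p = 0.0419), and the acyl-CoA synthetase Acsl6 rose to 46.4 ± 4.46 in mutants, against 30.6 ± 1.69 in controls (adjusted p = 0.00828).
Among controls, control 1 had the lowest control level in 18 of the 34 genes above the noise limit, against 25.4% of all rows above it, and its median log2 level relative to the control mean was -0.16. The other 5 controls lay between -0.02 and 0.07.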
